A study of Mus musculus with 7 samples.

Results

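The forkhead, Sox and T-box genes are 3 families of developmental transcription factors. Their members were taken by gene symbol: Fox followed by a letter and digits, Sox or Tbx followed by digits, T and Eomes, with Sox2, Sox7, Sox17 and Foxa2 left out. This rule found 86 of the 36733 transcription start site (TSS) rows in the tables, which belong to 66 of 17689 genes: 38 forkhead, 13 Sox and 15 T-box genes. Chromatin immunoprecipitation followed by deep sequencing (ChIP-seq) had been performed in E14, a mouse embryonic stem cell (ESC) line, with 1 sample in each of 7 conditions. Tip60 was precipitated with the Flag-M2 antibody from Tip60-H3F cells, and Hdac6 with the same antibody from Hdac6-H3F cells, H3F being a 6-histidine-3-FLAG tag added to the endogenous gene. The Tip60-H3F cells had been infected with lentivirus for GFP knockdown (KD), which served as the control, or for Hdac6 KD. The Hdac6-H3F cells had been infected for GFP KD or, by the sample's title, for Tip60 KD. The genotype label of the latter sample reads Hdac6 KD instead of Tip60 KD, and which gene was knocked down was not tested here. The study's text describes Hdac6 mapping in control and Tip60 KD cells, while the legend of those profiles names Hdac6 KD. Every value for that sample below is therefore for the sample titled Tip60 KD. Wild-type E14 cells without a tag, precipitated with Flag-M2, were the background control, and whether they had also been infected is not given in the sources used here. p400 was precipitated with an antibody against the endogenous protein upon GFP KD or Hdac6 KD, and its samples had no background control. Infected cells were collected 72 hr after infection.

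Tip60 is a lysine acetyltransferase and p400 a chromatin remodeling ATPase of the same large complex, Tip60-p400, which in ESCs is needed to keep differentiation genes repressed. Hdac6 is a class II deacetylase best known in the cytoplasm, which the study placed in the nucleus of ESCs together with this complex. Forkhead proteins bind DNA through a winged-helix domain, Sox proteins through a high mobility group box and T-box proteins through the T domain. Most of these genes are off or low in ESCs and are switched on as cells enter a lineage. Among them, T (Brachyury) marks the primitive streak and early mesoderm, Eomes acts in mesendoderm and trophoblast, Sox1 marks neural progenitors, and Foxp3 marks regulatory T cells. Foxd3, Tbx3, Sox15 and Foxh1, the nuclear partner of Smad proteins in Nodal signaling, are already in use in pluripotent cells or the early epiblast.

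The promoters of these genes were rich in GC and in CpG dinucleotides. Over the 1000 bp centered on the TSS, the median GC content of the members was 63.1% (range 40.6% to 74.2%) against 55.3% over all genes, and the median number of CpG dinucleotides was 73 against 42. By family the median GC content was 64.9% for the forkhead, 66.1% for the Sox and 60.8% for the T-box genes. The sequences from 250 bases before to 50 bases after the TSS are given for the first 3 genes of the list fixed for naming and for Foxh1. Foxh1 was added after its values were seen, and its row starts 75 bp from the annotated start. The CpG content of these 4 sequences spans a wide range. They were read from the mm9 genome at chr17:8627038-8627337 (plus strand, T), chr9:118387212-118387511 (plus strand, Eomes), chr5:120120428-120120727 (plus strand, Tbx3) and chr15:76500254-76500553 (minus strand, Foxh1), run 5′ to 3′ on the strand of the gene, and have each CpG in capitals. All 4 start sites lie in exonic untranslated sequence of the GENCODE annotation.
T: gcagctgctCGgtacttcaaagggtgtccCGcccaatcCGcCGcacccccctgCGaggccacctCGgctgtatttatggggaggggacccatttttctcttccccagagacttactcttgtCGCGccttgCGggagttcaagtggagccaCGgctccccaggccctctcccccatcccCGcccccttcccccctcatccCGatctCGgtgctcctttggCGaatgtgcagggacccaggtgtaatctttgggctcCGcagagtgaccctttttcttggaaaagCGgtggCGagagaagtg
Eomes: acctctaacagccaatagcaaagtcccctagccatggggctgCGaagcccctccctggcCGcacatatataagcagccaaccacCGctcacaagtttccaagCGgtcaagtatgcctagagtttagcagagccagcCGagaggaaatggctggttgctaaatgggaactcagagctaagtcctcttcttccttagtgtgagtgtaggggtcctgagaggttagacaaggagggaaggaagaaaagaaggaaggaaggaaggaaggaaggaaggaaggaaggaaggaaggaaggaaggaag
Tbx3: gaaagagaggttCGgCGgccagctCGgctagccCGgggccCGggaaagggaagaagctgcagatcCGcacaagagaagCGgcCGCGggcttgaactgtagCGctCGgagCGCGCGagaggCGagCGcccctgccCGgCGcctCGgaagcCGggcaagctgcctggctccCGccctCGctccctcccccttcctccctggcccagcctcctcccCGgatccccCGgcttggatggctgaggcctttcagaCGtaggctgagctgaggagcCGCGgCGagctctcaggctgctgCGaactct
Foxh1: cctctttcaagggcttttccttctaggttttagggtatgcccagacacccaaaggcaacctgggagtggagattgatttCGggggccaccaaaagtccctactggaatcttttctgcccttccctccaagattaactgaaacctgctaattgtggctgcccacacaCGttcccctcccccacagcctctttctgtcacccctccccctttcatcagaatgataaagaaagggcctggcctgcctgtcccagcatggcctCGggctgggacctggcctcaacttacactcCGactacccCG
These windows held 17 CpG dinucleotides at T, 5 at Eomes, 29 at Tbx3 and 5 at Foxh1, beside a median of 17 over the members and 13 over all genes. The letters TGTTTAC (a forkhead motif) were found on either strand in 2 of the 66 windows (3.03%, against 3.02% of all genes), ACAATGG (a Sox motif) in 3 (4.55% against 3.01%) and AGGTGTGA (a T-box motif) in 1 (1.52% against 1.08%). None of the 4 windows printed here held any of these letters.

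Signal is given below in reads per 1000000 normalizing reads at each position (ppm), averaged from 500 bp upstream to 500 bp downstream of the TSS, with 1 row per gene. Depth was low for single promoters. The samples were normalized to between 9226710 and 31375600 reads, and the median member had 7 to 20 reads in its window in each of the 7 samples (7 in Tip60 upon Hdac6 KD, 20 in p400 upon GFP KD). Intervals are 95% exact binomial intervals and cover counting error only. PCR copies are not independent molecules, so the intervals and the exact tests may understate even that error. With 1 sample per condition there is no spread between replicates to set a difference against. The exact tests below are two-sided conditional binomial tests of the reads of a pair of libraries, adjusted by the Benjamini-Hochberg method over all genes, and compare those libraries, not the conditions.

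Upon GFP KD, p400 was present at the members at close to the average level of all genes and seldom at a high level. The members' mean was 0.240 ppm (median 0.229, range 0.0325 to 0.479) against 0.256 (median 0.242) over all genes. Only 2 members, Foxh1 and Sox8, were in the top 10% of genes by p400, or 3.03% of the members. A further 9 were in the next 20%, 35 (53.0%) were in the middle 30%, and 20 (30.3%) were in the last 40%. The order of the members ran from Foxh1 at 0.479 ppm (41 reads), Sox8, a neural crest and glial factor, at 0.459 (40 reads) and Foxq1 at 0.413 (36 reads) down to Foxp3 at 0.0325 (3 reads). Of the genes fixed for naming or passing a test below, Sox15 was at 0.408, Eomes at 0.373, Foxc2, a mesoderm factor, at 0.365, and T at 0.334 ppm (29 reads). In this order, no exact binomial test of the reads of the 65 neighboring pairs reached an unadjusted p below 0.05 (lowest p = 0.508). Sorting by the same signal places like counts side by side, so these tests cannot decide how well the order is resolved. Near the bottom, and with at least 20 reads over both p400 samples, was Sox5 at 0.0945 ppm (8 reads). Tbx5, a heart and forelimb factor, was at 0.132 ppm (11 reads) under the same limit. The Sox5 rows not used here were at 0.0922 ppm (8 reads) and 0.247 ppm (21 reads).

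**Figure D1:**
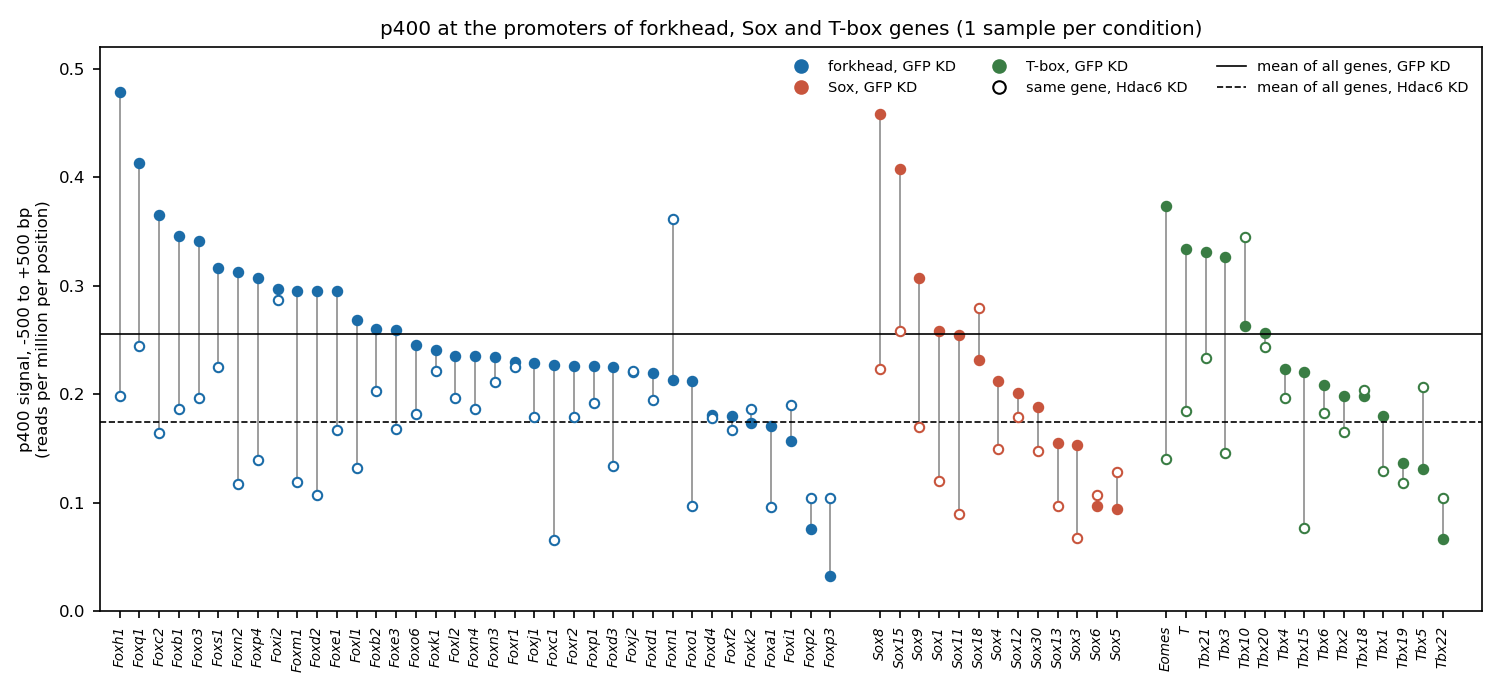
p400 promoter signal (vertical axis, ppm) of 65 of the 66 genes, ordered within each family by the level upon GFP KD. Filled points are GFP KD, open points Hdac6 KD, with 1 sample each, and the lines are the means over all genes, 0.256 and 0.175. The open point is the lower one at Foxh1 (0.479 and 0.198) and the higher one at Foxn1 (0.213 and 0.362).

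Set against promoters of the same GC content, the members stood low. Of 66 members, 48 had less p400 upon GFP KD than the median of all genes in the same 2.5-point GC bin, and 31 were below the lower quartile of their bin while 4 were above the upper one. For Tip60 upon GFP KD the counts were 52 below the median, 29 below the lower quartile and 7 above the upper quartile. Hdac6 upon GFP KD had 45, 26 and 6 such members. The untagged sample leaned the same way, with 42 members below the median, 28 below the lower quartile and 13 above the upper one. Among the 41 members whose promoter had a GC content of at least 60%, the mean of p400 was 0.259 ppm, Tip60 was at 0.145, Hdac6 at 0.195 and the untagged sample at 0.122. The 5434 genes of such GC content in the tables had 0.330, 0.210, 0.221 and 0.152 ppm. In that GC-rich class 1 of 41 members (2.44%) was in the top 10% of all genes by p400, against 17.4% of the class.

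**Figure D2:**
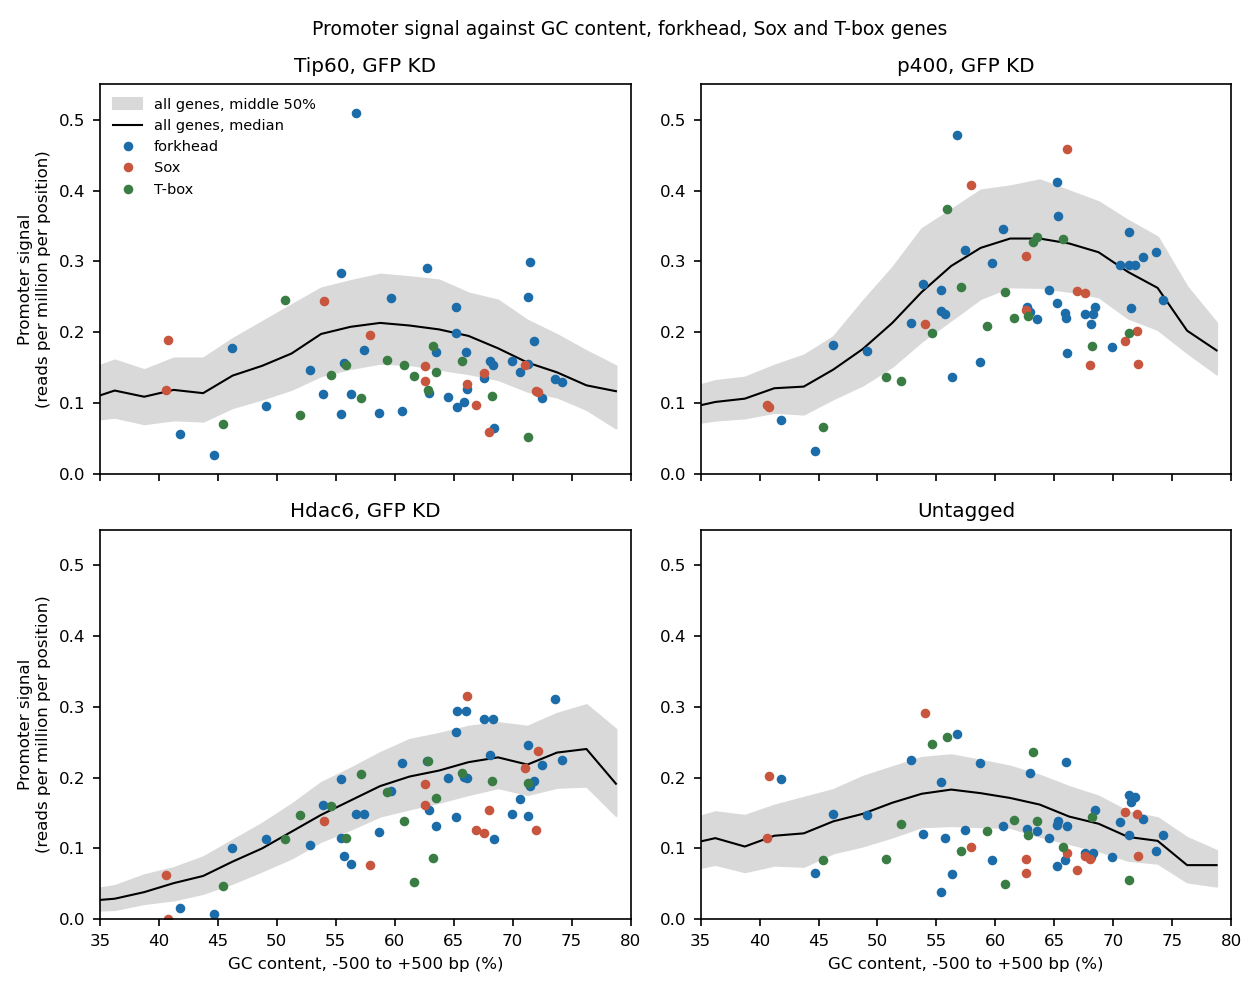
Promoter signal (vertical axes, ppm) against GC content of the 1000 bp window (horizontal axes) for Tip60, p400 and Hdac6 upon GFP KD and for the untagged sample. The line and band are the median and the middle 50% of all genes per GC bin, and 48 of the 66 member points lie under the line for p400.

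Other developmental regulators had like levels. The 39 Hox cluster genes had a mean of 0.222 ppm of p400 and 0.138 of Tip60 upon GFP KD, and the 56 dispersed homeobox and paired genes had 0.240 and 0.140, beside 0.240 and 0.150 at the members. None of these Hox and homeobox genes was in the top 10% by p400, while 2 Hox and 12 homeobox and paired genes were in the next 20%. Their median GC contents were 58.0% and 61.1%.

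Tip60 at the members was little above its background. The mean upon GFP KD was 0.150 ppm against 0.132 in the untagged sample, a ratio of 1.13 (1.02 to 1.26 by counting), where all genes had 0.189 against 0.157, a ratio of 1.21. The ratio was 1.18 for the forkhead and 1.16 for the Sox genes, and 1.00 for the T-box genes, which fell below 1 when the libraries were given equal totals. The members' promoter signal was also no higher than the signal 1500 to 2000 bp from their start sites, which was 0.152 ppm. Tip60 exceeded the untagged sample in 39 members and was below it in 27 (40.9%, against 38.0% of all genes). Of the 33 members with at least 20 reads over both samples, 5 were at least 2-fold higher (15.2%, against 14.9% of all genes tested) and 2 at least 2-fold lower (6.06%, against 4.09%).

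No member passed the exact read test of Tip60 against the untagged sample, where 1.74% of all genes had more reads at an adjusted p below 0.05 and 0.120% fewer. At an unadjusted p below 0.05, 4 members had more reads (10.4% of all genes did) and 2 had fewer (2.25%). Among members with at least 20 reads over both samples, the highest ratios were at Foxi2 (0.248 against 0.0839 ppm, 18 and 7 reads), Tbx19, a pituitary factor (0.245 against 0.0856 ppm, 18 and 7 reads), and Foxq1 (0.198 against 0.0745 ppm, 14 and 6 reads). Foxh1 had by far the most Tip60 of any member, 0.509 ppm or 37 reads, which put it in the top 1.44% of all genes, where the next member, Foxn3, had 0.300. Foxh1 was also high in the untagged sample, at 0.262 ppm or 21 reads, so that its ratio was 1.95 (1.09 to 3.44 by counting, exact adjusted p = 0.250). T was at 0.143 against 0.138 ppm, a ratio of 1.04, and Eomes was at 0.153 against 0.257, a ratio of 0.598 (0.258 to 1.31).

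Hdac6, in contrast, stood above the background at most members. Its reads span 148 bp in the table against 299 bp for the untagged sample, so the untagged signal was scaled to the shorter span. The mean upon GFP KD was 2.49 times the scaled background (2.24 to 2.75 by counting) at the members and 1.94 times over all genes. Both parts of the ratio differed: Hdac6 was at 0.164 ppm against 0.152 over all genes, and the unscaled untagged signal at 0.132 against 0.157. With a GC content of at least 60%, the members had less Hdac6 than their class (0.195 against 0.221 ppm) and less untagged signal (0.122 against 0.152). Hdac6 exceeded the background in 58 of 66 members and was below it in 8 (12.1%, against 20.9% of all genes). Of the 47 members with at least 20 reads over both samples, 35 were at least 2-fold higher (74.5%, against 53.3% of all genes tested) and none at least 2-fold lower, where 1.56% of all genes were. By the exact read test 32 of the 66 had more Hdac6 reads (48.5%, against 27.7% of all genes). GC content moved with this difference: in the class with a GC content of at least 60%, 28 of 32 members were at least 2-fold higher (87.5%) beside 79.1% of all genes of the class, and 29 of 41 members passed the read test (70.7%) beside 59.4%. The part of GC content in the difference was not tested further. With equal totals the members' ratio was 1.81 and 23 members were at least 2-fold higher, because that scaling lowers every ratio by 0.46 on the log2 scale.

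The strongest Hdac6 signal over background was spread over genes of varied function. Sox8 had 0.315 ppm (25 reads) against 7 untagged reads, a ratio of 6.74 (exact adjusted p = 1.77e-05). Foxn2 had 0.311 ppm (25 reads) against 8 reads, a ratio of 6.55 (exact adjusted p = 3.53e-05). Foxp1, which has an ESC-specific splice form, and Foxd3 each had 0.283 ppm (22 reads) against 7 reads, a ratio of 6.05 (exact adjusted p = 0.000105 for each). The Foxp1 rows not used here had 22 reads against 8 (chr6:98978688), 8 against 7 (chr6:99113023) and 3 against 22 (chr6:99216509). Tbx2 had 15 reads against 4, a ratio of 6.95, and Foxc2 had 23 against 11, a ratio of 4.27, and both passed the read test. T had 0.171 ppm (14 reads) against 11 reads, a ratio of 2.49 (1.07 to 6.19) that did not pass (exact adjusted p = 0.0646).

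A few members lay at or under the background for Hdac6. Eomes had 9 reads against 20, a ratio of 0.903, and Foxh1, the member with the most Tip60 and p400, had 12 against 21, a ratio of 1.15 (0.512 to 2.43). Tbx3 had 7 reads against 19, a ratio of 0.738. Sox5 had 0 Hdac6 reads against 16 untagged reads and passed the test in the downward direction (exact adjusted p = 0.0127), as 0.411% of all genes did. The ratio there was 0, with an upper limit of 0.518 by counting. That is the first Sox5 row in the file, at chr6:143895626 (mm9). The other Sox5 rows, at chr6:144152947 and chr6:144158000, had 9 against 13 and 15 against 16 reads. The first Sox5 row has a GC content of 40.8%, and Foxp2 (1 read against 16) has 41.8%. Among all genes of 40% to 42.5% GC content the median was 0.0508 ppm for Hdac6, where the members' median was 0.160.

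**Figure D3:**
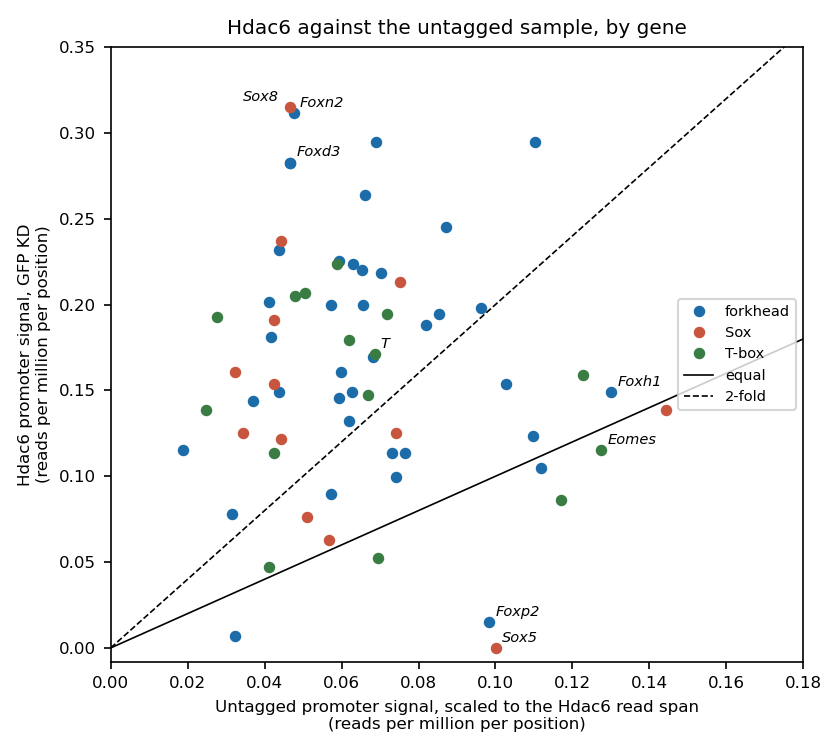
Hdac6 promoter signal upon GFP KD (vertical axis) against the untagged signal scaled to the Hdac6 read span (horizontal axis), both in ppm, with 1 point per gene. Of 66 points 58 lie above the solid line of equal signal, the dashed line marks 2-fold, and Sox5 is at 0.

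The shape of the signal around the start site was compared with that over all genes. Over all genes Hdac6 peaked 100 bp downstream of the TSS at 0.189 ppm, and over the members 140 bp downstream at 0.199. The members' mean from 100 bp upstream to 300 bp downstream was 1.32 times that from 600 to 200 bp upstream for Hdac6, 1.08 times for Tip60 and 1.06 times for p400, where all genes had 1.46, 1.03 and 1.20. The members' promoter signal of p400 was 1.27 times that of their distal flanks, where all genes had a ratio of 1.66 and those with a GC content of at least 60% had 1.88. For Tip60 this ratio was 0.988 at the members and 1.27 both over all genes and in that class. The mean profile of Hdac6 also had a shoulder inside the genes. From 800 to 1600 bp downstream, a window chosen after the profile was seen, Hdac6 upon GFP KD averaged 0.150 ppm at the members and 0.0970 over all genes, and 49 of 66 members were above the median of all genes. In the sample titled Tip60 KD, a separate library, the values were 0.161 and 0.0973 ppm, again with 49 members above the median. The same shoulder was there for p400 upon GFP KD (0.215 against 0.171 ppm, 48 members above the median) and not for Tip60 (0.152 against 0.158) or the untagged sample (0.139 against 0.158). By family, Hdac6 in this window was at 0.165 ppm for the forkhead, 0.174 for the Sox and 0.0909 for the T-box genes upon GFP KD, and at 0.160, 0.189 and 0.141 in the sample titled Tip60 KD. GC content moved with it: 1500 to 2000 bp downstream, the members had a median GC content of 51.1% against 44.8% over all genes. The 3676 genes with at least that GC content there averaged 0.153 ppm of Hdac6 and 0.213 of p400 from 800 to 1600 bp downstream. Of these genes 82.6% were above the median of all genes for Hdac6 and 71.2% for p400, against 74.2% and 72.7% of the members. The Hox cluster genes averaged 0.128 and 0.235 ppm upon GFP KD, with 79.5% and 97.4% above that median.

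**Figure D4:**
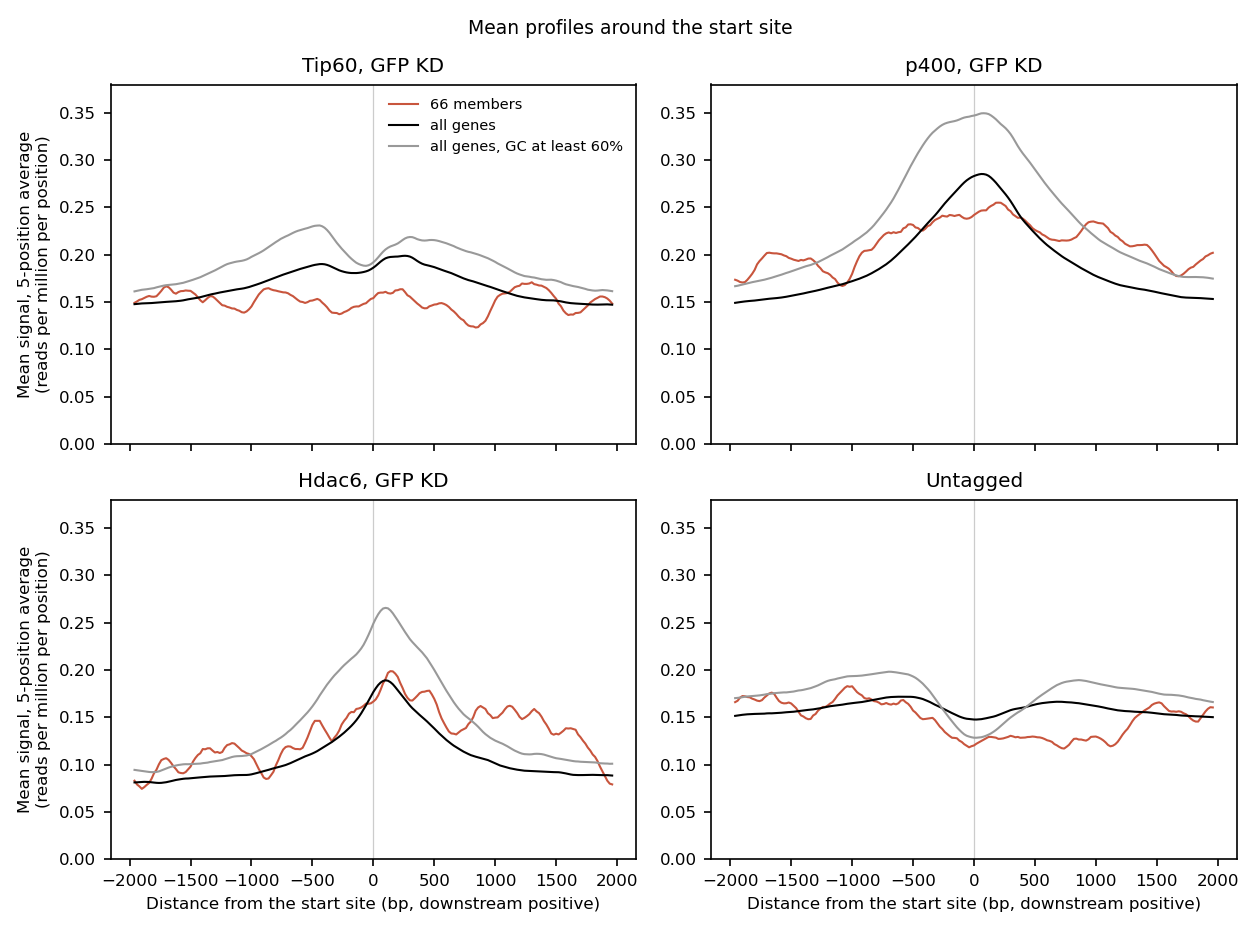
Mean signal (vertical axes, ppm, averaged over 5 positions) against distance from the start site (horizontal axes, bp, downstream positive) for the 66 members, all genes and all genes with a GC content of at least 60%. The member line is nearly flat for Tip60 and stays above the line of all genes for Hdac6 from 800 to 1600 bp, where it averages 0.150 ppm.

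The next question was how p400 at these genes differed upon Hdac6 KD. The members' mean was 0.172 ppm upon Hdac6 KD against 0.240 upon GFP KD, a change of -28.4% (-33.8% to -22.7% by counting), beside -31.7% over all genes. By family the change was -29.1% for the forkhead, -33.2% for the Sox and -22.3% for the T-box genes. p400 was lower in 53 members (80.3%, against 74.2% of all genes) and higher in 13. When both libraries were given equal totals, which raises every log2 ratio by 0.28, the change was -13.4% for the members (-14.2%, -19.2% and -5.97% by family), and 37 members were lower and 29 higher. Of the 62 members with at least 20 reads over both samples, 16 were at least 2-fold lower (25.8%, against 23.0% of all genes tested) and 0 at least 2-fold higher (2.21% of all genes). By the exact read test 9 members had fewer reads upon Hdac6 KD (13.6%, against 14.0% of all genes), and none had more, where 0.324% of all genes did and where none of the members did at an unadjusted p below 0.05 either (1.44% of all genes). At that unadjusted p, 18 members had fewer reads (27.3%, against 26.8% of all genes). In the class with a GC content of at least 60%, 13 of 41 members were at least 2-fold lower (31.7%), beside 33.7% of all genes of the class. With equal totals none of these 9 passed.

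The change over all genes deepened with GC content, and by the mean the members changed less than promoters of like GC content. In the class with a GC content of at least 60%, the change of the mean was -36.8% for the members and -43.0% for the class. The median change per gene lay closer together, at -40.7% and -42.0%, and p400 was lower in 95.1% and 93.9% of the genes. Promoters with a GC content of 45% to 47.5% had a median change of -0.262% upon Hdac6 KD, and those of 65% to 67.5% had -43.2%. Genes with the GC contents of the members would average -37.8%. After division by the median ratio of each GC bin, the members' change was 14.1% and that of each family was above 0 (13.6%, 7.83% and 21.0% for forkhead, Sox and T-box). Correction by the ratios of windows 1500 to 2000 bp from start sites, with no other start site within 1000 bp and binned by GC content, left -15.2%. For p400 and for Tip60 these flank bins ended at a GC content of 67.5%. The promoter bins above that held 8 (67.5% to 70%), 9 (70% to 72.5%) and 3 members (72.5% to 75%), which had no flank reference of their own GC content. The members' own flanks were at 0.189 ppm upon GFP KD against 0.168 upon Hdac6 KD, a change of -11.2%, beside -2.74% for the flanks of all genes.

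The members that passed the p400 read test came from different lineages. Foxh1 went from 0.479 to 0.198 ppm (41 to 21 reads, ratio 0.414, 0.232 to 0.716, exact adjusted p = 0.0117). Eomes went from 0.373 to 0.141 ppm (32 to 15 reads, exact adjusted p = 0.0199). Foxd2 went from 0.295 to 0.107 ppm (26 to 11 reads, exact adjusted p = 0.0250). Foxc1, a mesoderm and eye factor, went from 0.227 to 0.0656 ppm, or from 20 to 7 reads, which was the lowest ratio of all members, 0.289 (0.101 to 0.695, exact adjusted p = 0.0282). Foxn2 was at 27 and 13 reads, Sox8 at 40 and 24, Foxm1, a cell cycle regulator, at 26 and 13, Foxc2 at 32 and 18, and Sox11, a neural factor, at 22 and 10. These 5 had adjusted p-values between 0.0338 and 0.0499. Tbx15 (19 and 8 reads) and Tbx3 (28 and 16 reads) were also at least 2-fold lower without passing. T was at 0.334 ppm with GFP KD against 0.185 with Hdac6 KD (29 and 20 reads, ratio 0.554, 0.298 to 1.02, exact adjusted p = 0.164).

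Levels were higher upon Hdac6 KD at few members. Foxn1, the thymic epithelial regulator, was at 0.213 and 0.362 ppm (18 and 39 reads, ratio 1.70, 0.976 to 3.25), the highest ratio among the members with at least 20 reads. It was followed by Tbx5 at 1.57 (11 and 22 reads) and Sox5 at 1.36 (8 and 14 reads). The intervals of all 3 contained 1. The Sox5 rows not used here had 8 and 20 reads (chr6:144152947) and 21 and 13 reads (chr6:144158000) of p400. The Foxn1 row used here, the first in the file, lies at chr11:78185469 (mm9, minus strand), 14591 bp from the annotated start of the gene, and the other Foxn1 row, at that start, had 20 and 25 reads of p400 and 4 and 8 of Tip60.

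Tip60 upon Hdac6 KD was lower on average and not at every gene. The members' mean was 0.127 ppm against 0.150 upon GFP KD, a change of -15.5% (-24.5% to -5.45% by counting), beside -16.1% over all genes. The change was -18.5% for the forkhead and -13.7% for the Sox genes, and -8.17% for the T-box genes, which turned to 1.59% with equal totals, a scaling that raises every log2 ratio by 0.15. With that scaling the members' change was -6.54%, and after correction for GC content it was 9.17% (promoter bins) or 13.6% (flank windows). The level upon Hdac6 KD, 0.127 ppm, was below the 0.132 of the untagged sample. Tip60 was lower in 41 members (62.1%, against 62.3% of all genes) and higher in 25. The median change per gene was -21.1% for the members, against -17.0% over all genes. By family it was -19.6% for the forkhead, -17.4% for the Sox and -25.8% for the T-box genes. Of the T-box genes 10 were lower and 5 higher, both as deposited and with equal totals, so only their mean changed sign. Of the 26 members with at least 20 reads over both samples, 4 were at least 2-fold lower (15.4%, against 16.5% of all genes tested) and 2 at least 2-fold higher (7.69%, against 5.18%).

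Foxh1 carried the clearest difference in Tip60. Its signal was 0.509 ppm with GFP KD against 0.109 with Hdac6 KD, or 37 and 7 reads, a ratio of 0.215 (0.0793 to 0.479, exact adjusted p = 0.0140). It was the 1 member (1.52%) to pass the read test with fewer reads, beside 0.667% of all genes, and in the same exact test it passed again with equal totals (adjusted p = 0.0457) and from -1000 to 1000 bp (adjusted p = 0.0243) but not from -250 to 250 bp (adjusted p = 0.105). The untagged sample, at 0.262 ppm, lay between them. No member passed with more reads (0.0684% of all genes did). At an unadjusted p below 0.05, 3 members had fewer reads (4.55%, against 10.6% of all genes) and 1 had more (1.52%, against 2.99%). Foxk1 (17 and 5 reads), Foxn3 (22 and 9 reads) and Foxd2 (14 and 6 reads) were the others at least 2-fold lower. Foxn1 was at 0.146 and 0.460 ppm, or 11 and 30 reads, a ratio of 3.15 (1.48 to 6.72, exact adjusted p = 0.0782), and Foxk2 was at 7 and 15 reads. Foxn1 was thus higher upon Hdac6 KD in the Tip60 and in the p400 library, at a row with 18 reads in the untagged sample. The Foxk2 row not used here, at chr11:121120997, had 18 and 22 reads of Tip60. Foxd3 was at 0.153 and 0.272 ppm, or 11 and 18 reads (ratio 1.77, 0.815 to 4.27).

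The changes in both ChIPs were also counted together. The Tip60 and p400 libraries share no control, but over all genes both changes deepened with GC content. Between promoters of 45% to 47.5% and of 65% to 67.5% GC content, the change went from -7.88% to -30.1% for Tip60 and from -0.262% to -43.2% for p400. The part of GC content in the joint counts was not tested. Signal was lower upon Hdac6 KD for both proteins in 36 members (54.5%, against 47.9% of all genes) and higher for both in 8 (12.1% against 10.7%). Tip60 was higher and p400 lower in 17 (25.8% against 26.2%), and the reverse held in 5 (7.58% against 14.4%). Of the 25 members with at least 20 reads in each comparison, 2 were at least 2-fold lower in both, Foxh1 and Foxd2 (8.00%, against 5.40% of all genes tested in both).

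**Figure D5:**
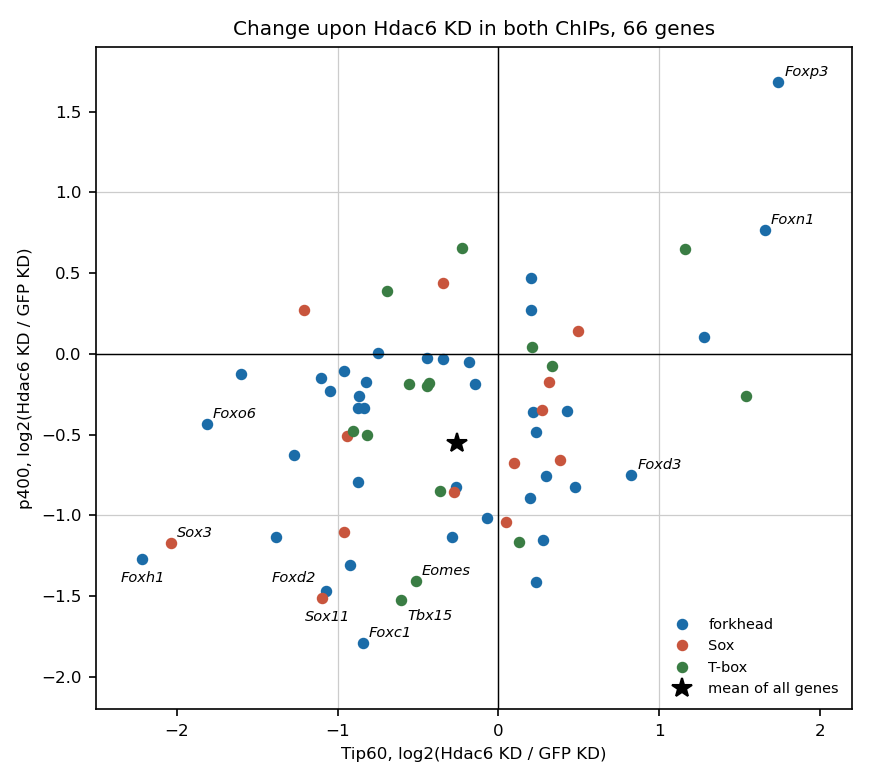
Log2 ratio of Hdac6 KD to GFP KD for Tip60 (horizontal axis) and p400 (vertical axis), with 1 point per gene and 1 sample per condition. The gray lines mark a 2-fold change, the star is the mean over all genes, and 36 of the 66 genes lie in the lower left corner, Foxh1 farthest to the left.

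Grouped by role, the 4 genes in use in pluripotent cells had the highest mean of p400. Foxd3, Tbx3, Sox15 and Foxh1 averaged 0.360 ppm of p400 upon GFP KD against 0.184 upon Hdac6 KD, a change of -48.9% (-61.5% to -30.7% by counting), and were lower in 4 of 4. Without Foxh1 their mean upon GFP KD was 0.320 ppm and the change was -44.0%. Foxd3, at 0.225 ppm, was below the mean of all genes (0.256). For Tip60 the change of the 4 genes was -19.6%, but without Foxh1 it was 36.8%, and the median change per gene was 19.9%, so that 1 gene set the direction of the mean. The 16 mesoderm and endoderm genes found had a p400 change of -30.0%, the 10 neural and neural crest genes -39.1%, and the 13 broadly expressed genes, such as Foxo1 and Foxo3, -32.1%. The 12 late and tissue-restricted genes, such as Foxp3 and Tbx22, averaged 0.198 ppm upon GFP KD and had a change of -7.49% (-24.0% to 11.5%), or -15.1% without Foxn1, and with equal totals the change turned to 12.0%. The 11 members in no role list had a change of -20.7%. With equal totals the p400 change of the other 5 groups lay between -38.1% (pluripotent) and -4.03% (no role list), and after GC correction from promoters it was -17.3% for the pluripotent, -2.99% for the neural, 13.4% for the mesoderm and endoderm, 13.8% for the broadly expressed, 42.8% for the late and 21.0% for the unlisted genes. After correction from the flank windows it ran from -44.5% for the pluripotent to 6.84% for the late genes, and the other 4 groups were below 0. The flank bins ended at a GC content of 67.5%, below the median of the broadly expressed list (71.3%). At the broadly expressed genes Tip60 changed by -30.7% (-47.3% to -11.8%), at the mesoderm and endoderm genes by -10.5% and at the neural genes by -24.7%. At the late and tissue-restricted genes it changed by 13.7%, or by -6.48% without Foxn1. Genes with the GC contents of the broadly expressed list, whose median is 71.3%, would average -29.5% for Tip60, and after GC correction that list was at -1.33%, the pluripotent at 4.86%, the mesoderm and endoderm at 14.7%, the neural at -7.61% and the late genes at 42.8%. The Hox cluster genes had changes of 0.860% for Tip60 and -26.9% for p400, and the dispersed homeobox and paired genes -4.24% and -28.3%.

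Hdac6 in the sample titled Tip60 KD was close to its level upon GFP KD. The members' mean was 0.182 ppm against 0.164, a change of 11.1% (0.908% to 22.9% by counting), beside 3.36% over all genes, and 38 members were higher and 28 lower (42.4%, against 46.9% of all genes). Of the 45 members with at least 20 reads over both samples, 3 were at least 2-fold higher (6.67%, against 3.93% of all genes tested) and 1 at least 2-fold lower (2.22%, against 3.24%). No member and no other gene passed the exact read test in either direction. At an unadjusted p below 0.05, 4 members had more reads (6.06%, against 2.38% of all genes) and 0 fewer (1.44% of all genes).

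The difference was unevenly spread over the families. The change was 2.88% for the forkhead and 4.53% for the T-box genes, and 47.1% (19.1% to 85.5% by counting) for the 13 Sox genes, of which 10 were higher. This grouping was picked out after its values were seen. The Sox genes had 153 reads upon GFP KD and 181 in the sample titled Tip60 KD, and their change was 29.7% from -250 to 250 bp, 25.3% from -1000 to 1000 bp, 28.4% over all their rows and 37.7% after GC correction. Sox18, a factor of the vascular endothelium, was at 0.161 and 0.387 ppm (13 and 25 reads, ratio 2.41, 1.19 to 5.14), and Sox12 was at 10 and 17 reads. Foxm1 had the highest ratio of all members with at least 20 reads, 2.56 (12 and 24 reads, 1.21 to 5.51). Under the same limit the lowest ratios were at Foxa1, an endoderm pioneer factor (16 and 6 reads, ratio 0.479, 0.151 to 1.27), Foxr1 (16 and 7 reads) and Foxn3 (15 and 7 reads).

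The remaining genes fixed for naming had modest levels. Tbx6, a paraxial mesoderm factor, had 0.208 ppm of p400 upon GFP KD against 0.183 upon Hdac6 KD, and Tbx21, the T helper regulator, had 0.332 and 0.234. Sox1 was at 0.259 and 0.121 ppm (22 and 13 reads) and Sox3, another early neural factor, at 0.153 and 0.0681 (13 and 7 reads). Sox4 was at 0.212 and 0.149, Sox9, a cartilage and neural crest factor, at 0.308 and 0.170, Foxo1 at 0.212 and 0.0969, and Foxo3 at 0.342 and 0.197. None of these 8 passed the p400 read test. Sox1 and Foxo1 were at least 2-fold lower in p400, as was Sox3, which had exactly the 20 reads the count asked for.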

How the data were processed

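ChIP-seq signal of 7 samples was taken from the tables the authors deposited. Per the study's methods and the submitters' processing notes (CASAVA 1.8.2, Bowtie, mm9), single-end reads were mapped to mm9 with at most 1 mismatch and extended, and their coverage was tallied from -2000 to 2000 bp of each TSS every 20 bp. The deposited signal is in reads per 1000000 normalizing reads, without background subtraction or pooling of replicates. Each value is a whole multiple (within 0.05 steps) of what 1 read adds, which gave the normalizing reads, the read spans (148 to 299 bp) and the reads per window.

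The signal from -500 to 500 bp was averaged for the first row with a RefSeq identifier of each gene (17689 genes). Fold calls used genes with at least 20 reads over both samples. GC content and sequences came from the mm9 genome, annotation from GENCODE vM1. The exact read test (scipy 1.17.1) was run on simulated reads, with the lowered genes drawn from those with at least 20 reads over both samples. It recovered 4.50% of genes lowered 4-fold and 45.0% of genes lowered 20-fold for Tip60, and 25.0% and 85.0% for p400. Of the genes it called in these runs, 18.2% and 1.1% were unchanged ones for Tip60, and 9.09% and 7.61% for p400. The members, gene lists and role lists were chosen with earlier results of these data known. Genes named are those of a fixed list of 20 regulators found in the files, the 3 members at each end of each knockdown comparison and of the p400 order, the 3 highest over the untagged sample, and up to 6 per comparison by p that passed the read test. Foxp2 and Tbx22 were named after their values were seen, and 1 gene that the rule names is not reported here. Alternatives were other windows, scalings, rows, limits, GC corrections and subtractions.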

Additional observations from a re-analysis of the deposited data

How the results depend on the processing

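Tip60 against the untagged sample had 5 members at least 2-fold higher, and 1 from -250 to 250 bp, 3 from -1000 to 1000 bp, 8 with no minimum of reads and 10 at a limit of 1.5-fold. The ratio of Hdac6 to the untagged sample was 2.76 from -250 to 250 bp, 2.10 from -1000 to 1000 bp, 1.81 with equal totals and 1.24 with the untagged signal as deposited, and 1, 23 and 12 members were at least 2-fold higher from -250 to 250 bp, with equal totals and with the untagged signal as deposited. For Tip60 upon Hdac6 KD, the change was -132% after subtraction of the untagged signal (0.132 ppm). That value does not measure a size of loss. The level upon Hdac6 KD (0.127 ppm) lay below the untagged signal, and that upon GFP KD (0.150) little above it. The change was 9.17% after GC correction from promoters and 13.6% after GC correction from flank windows. For this comparison 1 member was at least 2-fold lower from -250 to 250 bp, 2 with equal totals and 11 with no minimum of reads. The count was 8 at 1.5-fold, and 2 and 1 after the GC corrections. For p400 upon Hdac6 KD, the change was -13.4% with equal totals, -74.2% after subtraction of the flank signal, and 14.1% and -15.2% after the GC corrections, with 9 members at least 2-fold lower in both other windows, 7 with equal totals, 27 at 1.5-fold, and 0 and 5 after the GC corrections. For Hdac6 in the sample titled Tip60 KD, the change was 23.2% after subtraction of the flank signal, with 1 member at least 2-fold higher in both other windows, 5 with no minimum of reads and 7 at 1.5-fold. From -1000 to 1000 bp 4 members were in the top 10% by p400. The ratio of downstream to upstream Hdac6 signal was 1.86 after subtraction of the flank signal. The cause of these shifts was not tested, apart from the reads that a narrower window or another limit takes out or lets in by construction.

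Of 142 recomputed values, 85 kept their direction and stayed within the counting interval, within 1.5 times the count or on their side of the threshold, 34 moved past these limits, 3 changed sign and 20, all of single genes, lost the adjusted p below 0.05. Leaving out Foxh1, using all rows or using the most upstream row of each gene, the first and the last chosen after seeing the data, moved none of the means or counts of members beyond those limits. Subtracting the flank signal gave no value for Tip60 upon Hdac6 KD, nor for its position, because the remaining signal fell under 10% of the original. From -250 to 250 bp, 1 of the 9 members that passed the p400 read test passed again, and from -1000 to 1000 bp 7 did. No paired analysis was possible because each condition has 1 sample. In the simulated data the read test missed most genes lowered 4-fold, although these were drawn from genes with at least 20 reads over both samples. A single gene that did not pass may therefore still differ by that much.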
